A study of Mus musculus with 9 samples.

Results

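The 45 genes described here are transcribed mainly in dividing cells, in the S phase, when DNA is copied, or around mitosis. They were taken by symbol from every non-control probe whose accession mapped to one of them. All 45 were found, on 61 probes, out of 32451 genes or accessions on 39429 probes of a whole-genome mouse array. All 45 passed the filter on dim genes, as did 26325 genes in all. RNA came from the spleen of female BALB/c mice, 1 array per sample, in 3 groups of 3. The low Se non-GD mice had no Graves' disease (GD) and a low dietary selenium supply, the low Se GD mice had the disease and the low supply, and the normal Se GD mice had the disease and a normal supply. By its title, the study asks what selenium intake does to the risk and course of this autoimmune thyroid disease. No group joined a normal supply with absence of disease. The sources used here do not give the mice's age, how disease was brought about, the make-up of the diets, or whether the arrays of a group stand for separate animals. P-values therefore rest on how far these samples scatter, and that scatter may be technical. Below, non-GD is short for the low Se non-GD group.

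In a dividing cell, E2F factors and cyclin E open the S phase, enzymes such as ribonucleotide reductase and thymidylate synthase supply deoxynucleotides, and the sliding clamp Pcna holds polymerases on DNA. Cyclins A and B with Cdk1, the Polo and Aurora kinases and the factors Foxm1 and Mybl2 then drive entry into mitosis. Kinetochore proteins tie chromosomes to the spindle, a checkpoint holds back the anaphase-promoting complex until all are attached, and motor and cross-linking proteins divide the cell. In the adult mouse spleen, erythroid precursors of the red pulp and activated B cells of germinal centres are known to divide. Values below are log2 signals minus the 75th percentile of the same array, so 1 unit is a doubling, and a level can be compared between arrays but not between genes.

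Genes expressed at G2 and mitosis are known to carry a cell cycle genes homology region (CHR), read by the MuvB complex, and CCAAT boxes, read by NF-Y. RefSeq promoter windows (GRCm38.p6, 250 bases before to 50 after the start) were matched for 38 of the 45 genes, without Aurkb, Ccne2, Ccna2, Tpx2, Foxm1, Cdc25c and Kif20a. TTTGAA or TTCGAA, the letters searched for the CHR, occurred on either strand in 22 of these 38 (57.9%), against 21.7% of 27025 genes with a window. CCAAT occurred in 25 (65.8%), against 41.1%, and both together in 19 (50%), against 8.61%. The E2F letters TTTCCCGC, TTTGGCGC, TTTCGCGC and TTTGCCGC occurred in 2 (5.26%), against 2.6%. TTCGAA reads the same on both strands and was counted once. A gene counted if any of its windows held the letters, and 3 of the 38 had more than 1 window. A match describes the letters only.

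Shown here are the windows of the genes called in a comparison below that held a match, with the matches they cover in capitals and 5′ to 3′ along the gene. They are given because these members are the ones whose signal passed the test. In Ect2, a CHR match 114 bases before the start is followed by CCAAT at 96 and 55 bases (CCAAT also stood 2 bases after the start, outside the stretches printed), and in Cenpa the CCAAT letters lie on the other strand (ATTGG) at 109 and 86 bases. The first 3 stretches are the 130 bases before the start.
Ect2, chr3:27153879-27154008, minus strand: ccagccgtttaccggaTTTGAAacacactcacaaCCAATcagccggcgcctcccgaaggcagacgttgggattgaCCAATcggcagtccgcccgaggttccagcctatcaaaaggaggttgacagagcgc
Cenpa, chr5:30666756-30666885, plus strand: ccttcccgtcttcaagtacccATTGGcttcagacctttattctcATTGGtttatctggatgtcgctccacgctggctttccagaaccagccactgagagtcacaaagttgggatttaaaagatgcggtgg
Cenpe, chr3:135212433-135212562, plus strand: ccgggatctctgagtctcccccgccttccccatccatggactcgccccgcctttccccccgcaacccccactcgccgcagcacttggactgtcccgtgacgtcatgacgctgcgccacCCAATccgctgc
The CHR letters after the start, 30 bases each, stood as follows, and in Ndc80 they are on the other strand (TTCAAA).
Cenpa, chr5:30666890-30666919, plus strand: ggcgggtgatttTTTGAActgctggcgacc
Ect2, chr3:27153829-27153858, minus strand: gagagagcgactggattttTTTGAAtcgga
Ndc80, chr17:71526811-71526840, minus strand: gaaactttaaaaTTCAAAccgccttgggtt
The window of Pttg1 held none of the letters searched.

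Arrays of 1 group were not equally far apart, which touches every result below. Non-GD replicate 3 lay between replicates 1 and 2 for 44 of the 45 genes (70.9% of all genes tested), and on the linear scale it stood at a median of 0.491 of the way from replicate 2 to replicate 1, with quartiles of 0.476 and 0.51. Low Se GD replicate 2 lay between replicates 1 and 3 for 44 of 45 (63.3% of all), at a median of 0.409. Normal Se GD replicates 1 and 2 differed by a median of 0.05 over the 45 genes, and by 2.85 times the noise of repeated spots over 272 probes, where other pairs of 1 group differed by 5.04 to 12.2 times. Results are therefore also given without the in-between arrays and with that pair averaged. The labels name no slide, so arrays with 1 scan time in the file headers were taken to share a slide. Of 3 slides so inferred, slide 1 carried all non-GD arrays plus replicate 1 of low Se GD. Slide 2 carried the remaining low Se GD arrays (replicates 2 and 3) beside replicates 1 and 2 of normal Se GD, whose replicate 3 had slide 3 to itself. The 28S ribosomal RNA gene Rn28s1 read 0.45 to 0.83 in non-GD, 3.0 to 5.59 in low Se GD and 4.93 to 5.99 in normal Se GD. The E1A control spot a107 of the array design read 4.72 to 5.85, 1.01 to 2.51 and 0.87 to 2.37 in turn. Both signals thus differed between non-GD and the GD groups, and their part in the results on the 45 genes was not tested. The share of spots well above background was 72.6% to 82.6% on 8 arrays and 58.4% on normal Se GD replicate 3.

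Most of the 45 genes kept a like order of arrays, with exceptions such as Ndc80 and Tyms. Their median signal was 1.14, -0.17 and 0.58 on non-GD replicates 1, 2 and 3, then 0.68, 1.07 and 1.24 in low Se GD, then 0.27, 0.27 and 0.23 in normal Se GD. The low Se GD medians thus lay above every normal Se GD median, while those of non-GD ran from below all of them to above low Se GD replicate 2. Non-GD replicate 2 was the lowest of the 9 arrays for 33 of the 45 genes (19.8% of all genes), and low Se GD replicate 3 the highest for 34 (10.6% of all). For non-GD, low Se GD and normal Se GD in turn, the range between arrays of the group had a median over the 45 of 1.26, 0.63 and 0.29, against 0.26, 0.29 and 0.45 over all genes.

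**Figure D1:**
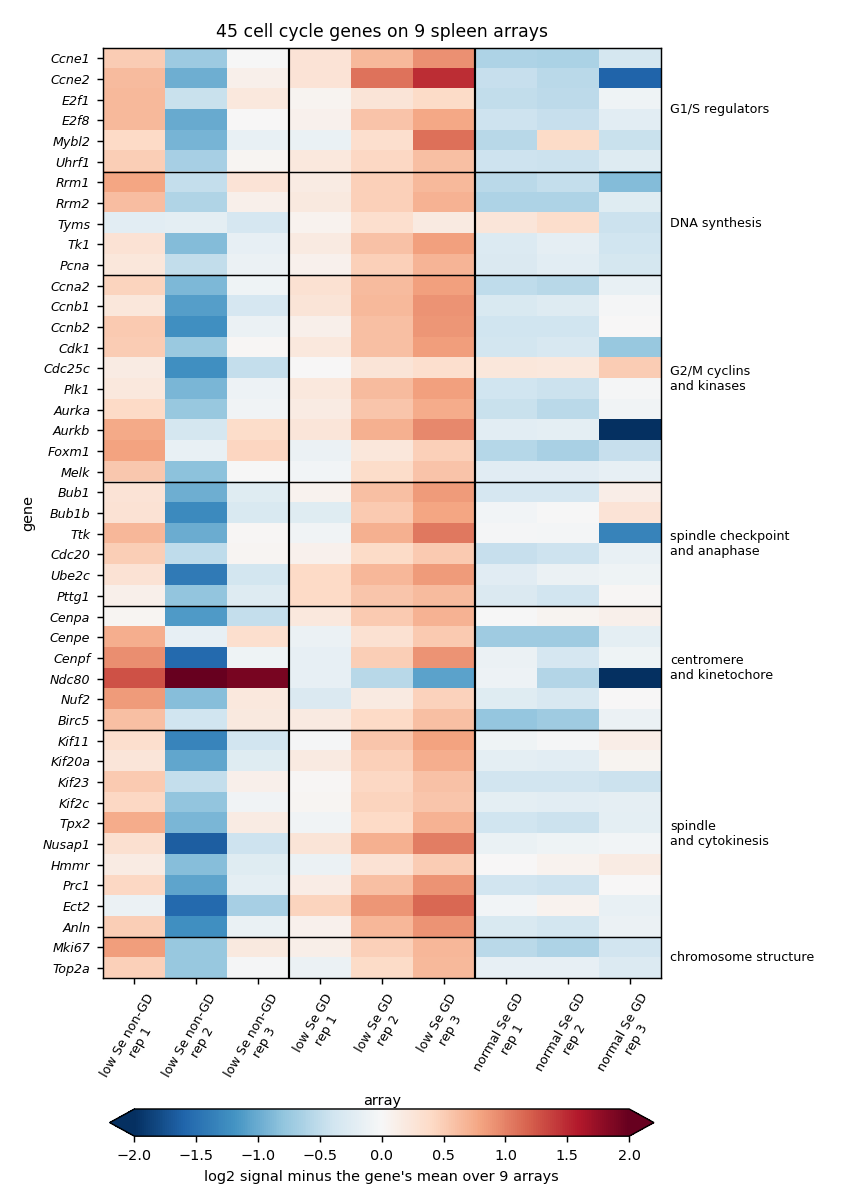
Colour gives each gene's log2 signal minus its own mean over the 9 arrays (columns) for the 45 genes (rows, in role groups); the scale ends at -2 and 2. Non-GD replicate 2 is blue and low Se GD replicate 3 red for most genes, while Ndc80 shows the opposite order and Aurkb, Ccne2 and Ttk are far lower on normal Se GD replicate 3.

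The selenium comparison set normal Se GD against low Se GD and addressed supply in diseased mice. Fitted differences were below 0 for 44 of 45 genes, with a median log2 difference of -0.75, or 1.69-fold lower, against 0.00 over all genes tested. For 34 of 45 genes, every normal Se GD array was below every low Se GD array, which held for 11.4% of all genes tested, and the reverse held for 0 (17.9% of all). None of the 45 passed: limma with Benjamini-Hochberg adjustment called 0 higher and 0 lower (0.976% and 0.292% of all genes), with 21 lower and 0 higher at an unadjusted p under 0.05 (6.71% and 12.7% of all). The lowest adjusted p was 0.103, for Ccne1. In bulk tissue, fewer dividing cells and less of these RNAs per cell cannot be told apart.

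Each role group leaned to the same side in this comparison. Ccne1, cyclin E1, which activates Cdk2 at the G1/S transition, stood at 2.60, 2.98 and 3.24 in low Se GD, against 1.72, 1.70 and 1.98 in normal Se GD. These groups did not overlap, and the difference was -1.14 (SE 0.31, adjusted p = 0.103 in limma). Among the 6 G1/S regulators the group means were farthest apart for Ccne2, the other cyclin E, at -1.82 (SE 0.51), and 5 of 6 did not overlap, the exception being Mybl2. Among 5 genes of DNA synthesis, 4 did not overlap. Pcna read 4.01, 4.40 and 4.60 against 3.64, 3.71 and 3.58, a difference of -0.69 (SE 0.21, adjusted p = 0.129). Tyms, thymidylate synthase, was the exception at -0.14 (SE 0.20).

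Of 10 cyclins, kinases and factors of G2 and mitosis, 9 did not overlap, with a median of -0.82. Ccna2, cyclin A2, read 2.95, 3.28 and 3.47 in low Se GD, against 2.14, 2.10 and 2.50 in normal Se GD, a difference of -0.98 (SE 0.32, adjusted p = 0.154). Cdc25c, the phosphatase that activates Cdk1, was the exception among the 10 and the single gene of the 45 above 0, at 0.11 (SE 0.31). The difference of -1.54 (SE 0.58) for Aurkb, the kinase of the chromosomal passenger complex, was enlarged by normal Se GD replicate 3, at -3.08 against -0.99 and -0.98 on the other two.

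Of 6 genes of the spindle checkpoint and anaphase, 3 did not overlap (median -0.72). Pttg1, securin, which restrains separase until anaphase, read 2.72, 2.87 and 2.95 in low Se GD against 2.02, 1.93 and 2.34 in normal Se GD, a difference of -0.75 (SE 0.22, adjusted p = 0.126). A second, dimmer probe of Pttg1, well above background on 9 arrays, gave -0.04 (SE 0.25). Of 6 centromere and kinetochore genes, 3 did not overlap (median -0.63). Birc5, survivin, a subunit of the chromosomal passenger complex, read 3.79, 4.0 and 4.21 against 2.83, 2.90 and 3.49, a difference of -0.93 (SE 0.28, adjusted p = 0.129). Of 10 spindle and cytokinesis genes, 8 did not overlap (median -0.71), with Nusap1, which bundles spindle microtubules, at 1.28, 1.73 and 2.05 against 0.89, 0.94 and 0.97. Mki67, the proliferation antigen Ki-67 that coats mitotic chromosomes, read 4.67, 5.02 and 5.21 against 4.01, 3.94 and 4.16, a difference of -0.93 (SE 0.36, adjusted p = 0.212). Both it and Top2a, the topoisomerase that untangles sister DNA, did not overlap.

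The count of calls differed between ways of treating slide. Among the 4 arrays of slide 2 alone, 2 a group, 38 of 45 genes fell (4.81% of all genes were called lower there), with a median of -0.93. The 38 were 5 of 6 G1/S regulators, 4 of 5 genes of DNA synthesis, 9 of 10 cyclins and kinases, 6 of 6 checkpoint genes, 3 of 6 kinetochore genes, 9 of 10 spindle genes and both chromosome genes. The lowest adjusted p was 0.0357, as for Ccne1 (-1.40, SE 0.11) and Ccna2 (-1.25, SE 0.09). With slide as a fixed block the median was also -0.93, and 0 genes were called (1.79% of all): the median SE of the 45 was 0.39 there and 0.11 within slide 2. The 4 arrays of slide 2 include the near-equal pair and the in-between array of low Se GD, and leave 2 residual degrees of freedom, so the spread they give may be too small and the 38 calls cannot be put down to slide. With slide as a random block 2 genes fell (2.29% of all), Birc5 and Ccne2. Without the in-between arrays the median stayed at -0.74 and 0 genes were called (6 lower at an unadjusted p).  Of all genes 0% were called there in either direction, so the count of 0 is not particular to the 45. With the near-equal pair averaged as well, the median was -0.71 with 0 called (1 at an unadjusted p), and again 0% of all genes were called. The share of all genes at an unadjusted p is not given for these 2 settings.

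**Figure D2:**
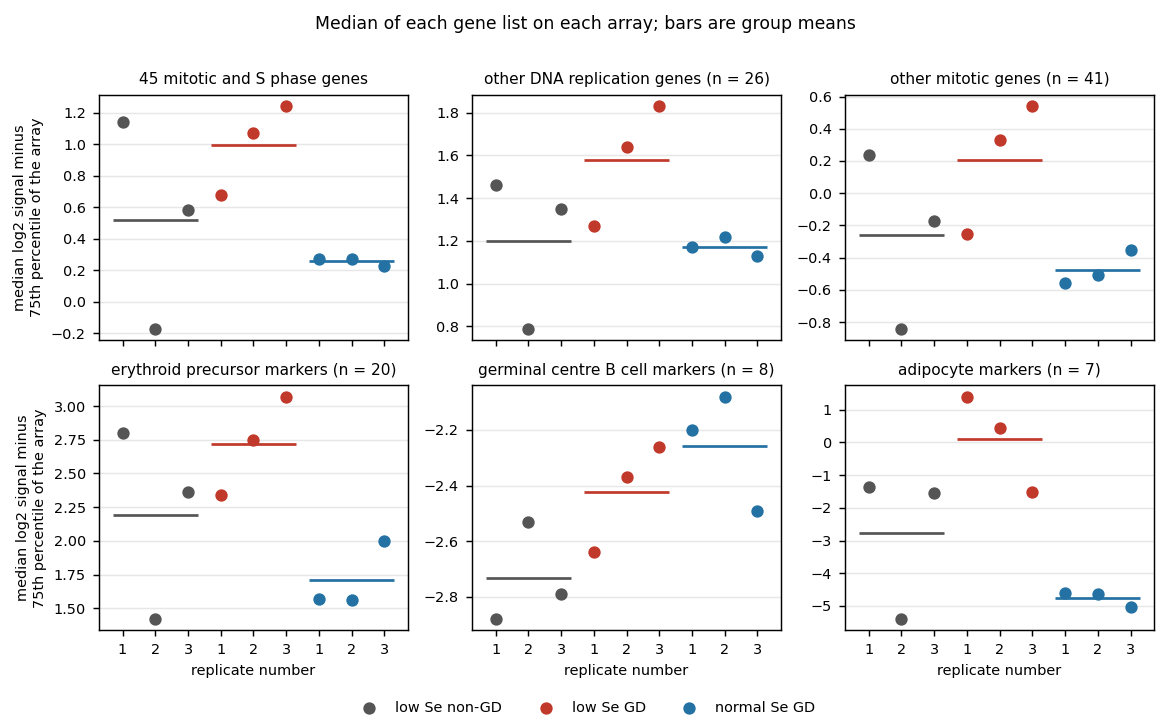
Each point is the median of a gene list (log2 signal minus the 75th percentile of the array) on 1 array, by replicate number, coloured by group; bars are means of 3 medians and the vertical scales differ between panels. The medians of the 45 genes, the other replication genes, the other mitotic genes, the erythroid markers and the adipocyte markers are all highest on a low Se GD array, while germinal centre markers are highest in normal Se GD.

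Erythroid precursor markers moved with these genes. Their median over 20 measured markers was 2.80, 1.42 and 2.36 in non-GD, 2.34, 2.75 and 3.07 in low Se GD, against 1.57, 1.56 and 2.0 in normal Se GD. In the selenium comparison 0 of 20 were called (0.292% of all genes were called lower), and the median was -1.0. Of the 20, 16 did not overlap and were lower (11.4% of all genes). Klf1, the master factor of erythroid genes, read 3.15, 3.66 and 3.99 in low Se GD, against 2.18, 2.15 and 2.44 in normal Se GD. The globin genes Hba-a1 and Hbb-bt stood at 0.01 and -0.15. The log2 of the summed signal of the list was 8.68 to 10.03 in non-GD, 9.55 to 9.84 in low Se GD, then 9.33 to 9.43 in normal Se GD, and no measured marker of it was near background on more than 1 array. Within slide 2, 16 of 20 erythroid markers fell (median -1.24), against 4.81% of all genes. Their part in the result was not tested.

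Adipocyte markers, of which Lep was well above background on 0 arrays, were also lower in normal Se GD than in low Se GD. Over 7 measured, 7 did not overlap and were lower (11.4% of all genes), and 1, Adipoq, was called lower (0.292% of all). The median difference was -4.99, and -3.09 under normexp, but 2 of the 7 were well above background on all 9 arrays, so these sizes rest partly on signals near background. Log2 summed signals were -0.59 to 2.58, 2.95 to 6.26 and -0.32 to -0.30 in the 3 groups. Within the low Se GD group, the adipocyte medians of 1.40, 0.43 and -1.52 ran opposite to the medians of the cell cycle genes. In non-GD the order of arrays was the same for both lists, the adipocyte medians being -1.37, -5.4 and -1.56. The part of adipocytes in the result was not tested. For germinal centre B cell markers, 0 of 8 were called in this comparison and the median was 0.10. B cell markers moved the other way, with 2 of 10 called higher (0.976% of all genes) and a median of 0.41. Of the 10, 9 did not overlap and were higher (17.9% of all genes). Macrophage markers were called higher in 1 of 9 (median 0.13). The part of these cells was not tested.

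The disease comparison set low Se GD against non-GD and addressed disease at a low supply. Ect2, Pttg1 and Cenpa rose and Ndc80 fell, so 3 of 45 genes were called higher and 1 lower, against 12.8% and 12.2% of all genes tested (8.54% and 12.4% under normexp background correction). The fitted difference was above 0 for 42 of 45, with a median of 0.63 (1.55-fold) against 0.08 over all genes. Groups did not overlap for 7 genes that were higher and 1 that was lower (29.5% and 23.4% of all genes), and an unadjusted p under 0.05 was reached by 12 and 1 (20.7% and 16.9% of all). The range within 1 of the groups exceeded the difference between their means for 42 of 45 genes, against 59% of all genes.

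Ect2, the exchange factor that activates RhoA at the cleavage furrow, read -1.03, -2.47 and -1.57 in non-GD and -0.47, -0.02 and 0.24 in low Se GD. The groups did not overlap, and the difference was 1.61, or 3.05-fold (SE 0.35, adjusted p = 0.0131). Pttg1 read 2.42, 1.53 and 2.06 against 2.72, 2.87 and 2.95, a rise of 0.84 (SE 0.22, adjusted p = 0.0294). Its second probe was not called, at 0.64 (SE 0.25, adjusted p = 0.0973 in limma over all probes). Cenpa, the histone H3 variant that marks centromeres, read 0.38, -0.79 and -0.13 against 0.56, 0.86 and 1.03, a rise of 0.99 (SE 0.27, adjusted p = 0.0327). In all of these genes non-GD replicate 2 was the lowest of the 9 arrays.

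These calls were lost without single arrays, and with slide in the fit. Leaving out low Se GD replicate 2 ended the call of Ect2 (1.57, adjusted p = 0.0518), the single one of 9 such omissions to do so. Pttg1 was lost in 5 of the 9, namely without non-GD replicate 2 or 3 or any low Se GD array (adjusted p up to 0.0939). Cenpa was lost in 6, without non-GD replicate 2 or 3, low Se GD replicate 2 or 3, or normal Se GD replicate 1 or 2 (adjusted p up to 0.105). Without non-GD replicate 1, 16 genes were called higher (12.1% of all), and without replicate 2 of that group, 1 (8.12% of all). With slide as a fixed block 0 were called higher (15% of all genes) and the median was 0.22, Ect2 standing at 1.22 (adjusted p = 0.135). That value rests on 1 low Se GD array. Without the in-between arrays 0 were called (0.247% of all genes higher and 0.775% lower) and the median was 0.64. At an unadjusted p 3 were higher there, for which the share of all genes is not given.

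**Figure D3:**
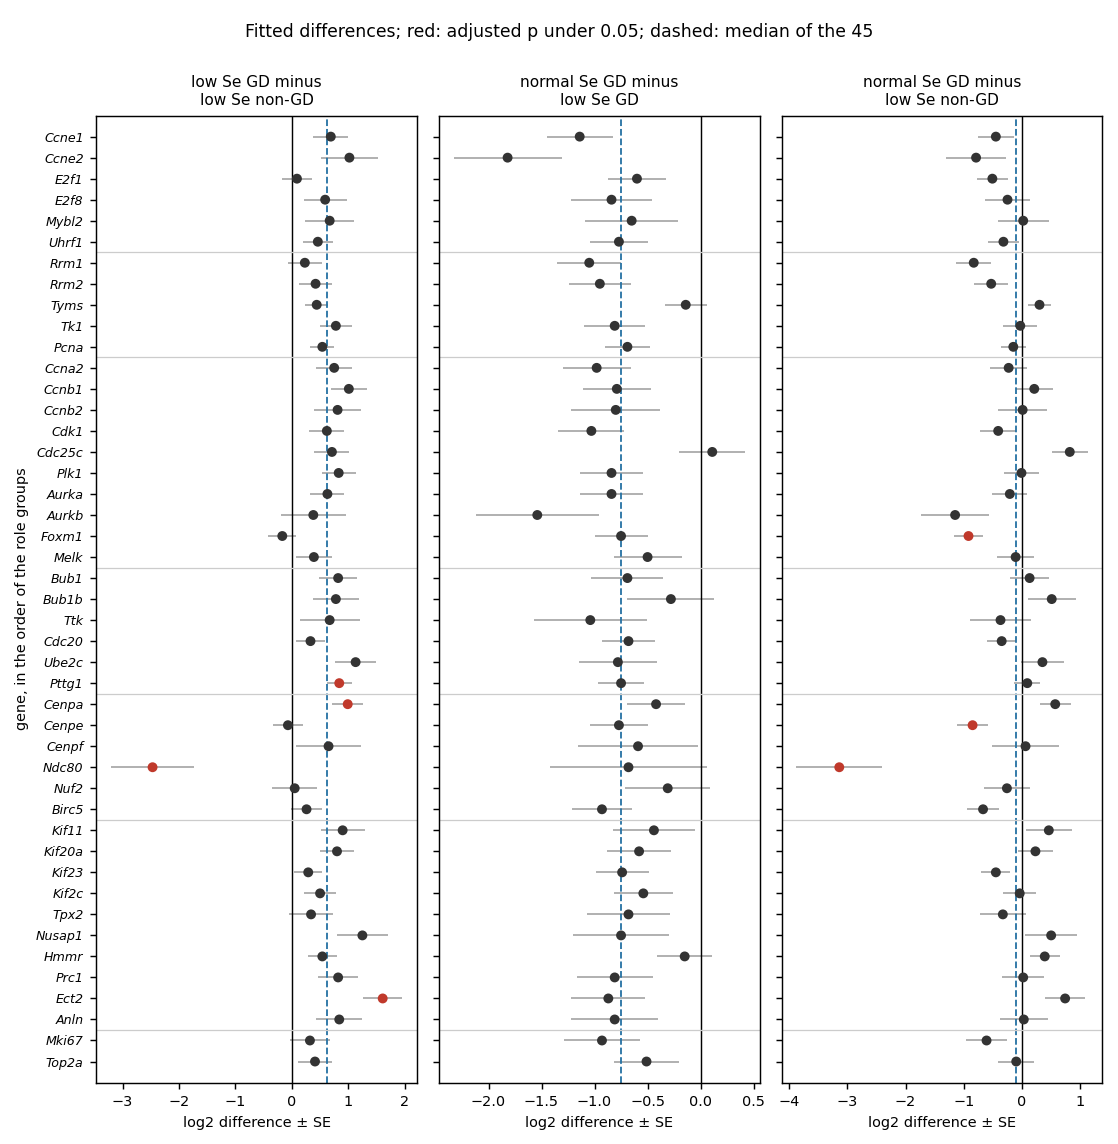
Points are fitted log2 differences for the 45 genes (rows, in role groups) and lines their SE, in 3 comparisons whose horizontal scales differ; red marks an adjusted p under 0.05 and the dashed line the median of the 45. Medians are 0.63, -0.75 and -0.11, and red points number 4, 0 and 3.

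By role, the median differences in the disease comparison were 0.63 for G1/S regulators, 0.44 for DNA synthesis, 0.67 for cyclins and kinases, 0.80 for the spindle checkpoint, 0.15 for kinetochore genes, 0.81 for spindle and cytokinesis genes and 0.37 for chromosome structure. Mitotic genes such as Ube2c, the ubiquitin carrier of the anaphase-promoting complex (1.13, SE 0.37, adjusted p = 0.0618), and Ccnb1, cyclin B1 (1.01, SE 0.32, adjusted p = 0.0534), were near the threshold. Both had groups that did not overlap. The other probes of Ccnb1, well above background on 9 arrays, gave 0.52 and -0.54 here. Their adjusted p in limma over all probes was 0.497 and 0.22, so the probes of Ccnb1 differ in direction. Mki67 read 5.39, 3.80 and 4.75 in non-GD and 4.67, 5.02 and 5.21 in low Se GD, with overlapping groups and a difference of 0.32 (SE 0.36, adjusted p = 0.559). The S phase clamp Pcna stood at 0.54 (SE 0.21, adjusted p = 0.099). Beside these values, erythroid markers had a median of 0.63 in this comparison with 0 of 20 called, and adipocyte markers one of 3.51 with 4 of 7 called higher. Plasma cell markers rose in 4 of 8, macrophage markers in 6 of 9 and germinal centre B cell markers in 1 of 8, while B cell markers fell in 4 of 10 and 0 of 9 T cell markers were called. Over all genes 12.8% were called higher and 12.2% lower, so the count for germinal centre markers was near that share. The germinal centre marker called, Mybl1, and 1 of the adipocyte markers, Plin1, were not well above background on any non-GD array. The same held for Cd163, 1 of the 9 macrophage markers. Rn28s1 read 0.83, 0.45 and 0.56 in non-GD and 5.59, 4.12 and 3.0 in low Se GD, so it was higher in low Se GD. Its order of arrays was the reverse of that of the member medians in low Se GD and the same as theirs in non-GD. The part of these cells, of the ribosomal RNA signal and of the E1A control signal in the result was not tested.

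Ndc80, the kinetochore protein that grips microtubules, fell where 42 of the 45 genes were fitted above 0. It read 3.66, 4.81 and 4.28 in non-GD, 2.22, 1.82 and 1.31 in low Se GD, against 2.28, 1.80 and -0.76 in normal Se GD. It fell by 2.47 on the log2 scale in low Se GD (SE 0.74, adjusted p = 0.0456) and by 3.14 in normal Se GD (SE 0.74, adjusted p = 0.0148), each against non-GD. The E1A control spot a107 of the array design read 4.72, 5.85 and 5.35, then 2.51, 1.71 and 1.01, then 2.37, 1.43 and 0.87, so that its order of arrays within each group was the same as that of Ndc80. The part of that control signal in the reading of Ndc80, which has 1 probe, was not tested. Its partner in the same complex, Nuf2, read -0.87, -2.57 and -1.50 in non-GD and -2.01, -1.53 and -1.25 in low Se GD, a difference of 0.05 (SE 0.40). The first call of Ndc80 was lost in 7 of 9 omissions of 1 array, all but those of normal Se GD replicates 1 and 3 (adjusted p up to 0.137), and the second without non-GD replicate 2 (-2.86, adjusted p = 0.052).

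A cross comparison set normal Se GD against non-GD, groups that differ in both disease and supply. Here 0 of 45 genes were called higher and 3 lower, Ndc80, Foxm1 and Cenpe, against 18.9% and 13.4% of all genes tested. The median was -0.11, against 0.06 over all genes, with 27 fitted differences below 0 and 18 above. Groups did not overlap for 1 gene that was higher and 4 that were lower (28% and 21.1% of all genes), the 4 being the called ones and Rrm1. At an unadjusted p under 0.05, 1 was higher and 5 lower (25.1% and 17.8% of all genes). This comparison shares arrays with both others. Erythroid markers had a median of -0.38 in it, with 2 of 20 called lower (Add2 at -1.22 and Tspo2 at -0.83). Macrophage markers rose in 8 of 9 (median 1.06), plasma cell markers in 5 of 8 (0.72) and neutrophil precursor markers in 4 of 8 (0.55). The 9 macrophage markers include Cd163, which was well above background on 0 non-GD arrays. It passed the filter through the GD groups alone, so the macrophage median rests partly on a signal near background. Their part, and that of Rn28s1 and of the E1A control spot, was not tested.

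Foxm1, the transcription factor of mitotic entry, read 0.84, -0.12 and 0.45 in non-GD and -0.54, -0.62 and -0.43 in normal Se GD, and fell by 0.92 on the log2 scale (SE 0.25, adjusted p = 0.0248). On the low Se GD arrays it read -0.09, 0.25 and 0.51. A second probe of Foxm1 was called in the opposite direction over all probes. It was well above background on 4 arrays, 2 in each GD group and 0 in non-GD, and so passed the filter through the GD groups alone. Its call is therefore not read as a rise, and it is given no size. Cenpe, the kinesin that carries chromosomes to the metaphase plate, read 2.11, 1.21 and 1.72 in non-GD and 0.67, 0.67 and 1.18 in normal Se GD. It fell by 0.85 on the log2 scale (SE 0.27, adjusted p = 0.0461). The call of Foxm1 was lost without non-GD replicate 1 or 3 or normal Se GD replicate 1 or 2 (adjusted p up to 0.0793). That of Cenpe was lost in 6 of 9 omissions, those same arrays and low Se GD replicates 2 and 3 (adjusted p up to 0.128). Without non-GD replicate 2, 9 genes were called lower (10.5% of all), and with slide as a fixed block (5.41% of all) or without the in-between arrays (5.33%) 0 were. Without non-GD replicate 1, Cdc25c, Cenpa and Ect2 were called higher, 3 of 45 against 16.1% of all genes, and without normal Se GD replicate 3, 1 was, Tyms (27.2% of all). Cdc25c was well above background on only 2 non-GD arrays, so its call may rest partly on a signal near background.

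**Figure D4:**
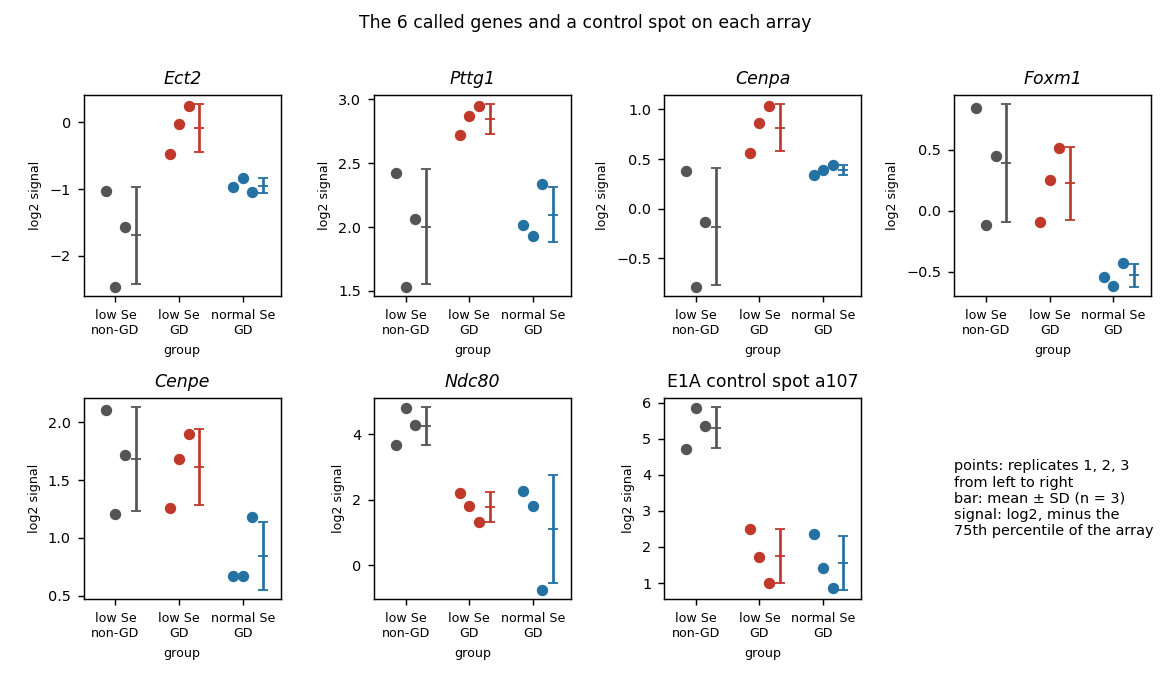
Points are log2 signals on the 3 arrays of each group (replicates 1 to 3 from left to right) for the 6 called genes and the E1A control spot a107, with the mean and SD (n = 3); vertical scales differ. Ect2, Pttg1 and Cenpa are highest in low Se GD, Foxm1 and Cenpe lowest in normal Se GD, and Ndc80 follows the order of the control spot.

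Set against the median of the 45 on the same array, the genes differed in how tightly they kept their place. These relative values are a description, since the median is made from the members themselves. Ect2 stood at -2.17, -2.29 and -2.15 in non-GD, -1.15, -1.09 and -0.99 in low Se GD, against -1.24, -1.10 and -1.28 in normal Se GD. The wide range of its plain signal in non-GD was thus nearly gone, and both GD groups lay about 1 unit above it. Cenpa stood at -0.76, -0.61 and -0.70, then -0.12, -0.21 and -0.20, then 0.07, 0.13 and 0.21, with 3 groups that did not overlap. Foxm1 stood at -0.30, 0.06 and -0.13, then -0.77, -0.82 and -0.73, then -0.82, -0.89 and -0.66, lower in both GD groups. Cenpe behaved alike, at 0.98, 1.39 and 1.15, then 0.58, 0.60 and 0.66, then 0.40, 0.40 and 0.95. Pttg1 stood at 1.28, 1.71 and 1.48, then 2.04, 1.79 and 1.72, then 1.75, 1.66 and 2.11. Ndc80 kept a wide range, at 2.52, 4.99 and 3.70, then 1.54, 0.75 and 0.08, then 2.01, 1.53 and -0.99. The genes printed are the called ones, and separated groups were not particular to them. In the disease comparison, relative values of the 45 did not overlap for 20 genes that were higher and 8 that were lower. Such values were not made for all genes, so these counts have no share to stand beside. Plain signals did not overlap there for 29.5% (higher) and 23.4% (lower) of all genes.

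Of the 45 genes, 13 had more than 1 probe. Of 61 probes, 60 were tested, and the other, a second probe of Nuf2, was well above background on 0 arrays. Called probes numbered 5 higher and 1 lower in the disease comparison (13.3% and 11.7% of all probes), 0 and 0 in the selenium comparison (1.8% and 0.383%), and 1 and 4 in the cross comparison (20.9% and 12.6%). Besides the probes of the called genes, these were, in the disease comparison, a second one of Uhrf1, a partner of the maintenance DNA methyltransferase (0.55, adjusted p = 0.0382), and the second probe of Foxm1. The latter passed the filter through the GD groups alone, so its call is not read as a rise and it is given no size. In the cross comparison they were that probe of Foxm1 again and another probe of Ccnb1 (-0.90, adjusted p = 0.0464). The probe that stood for Ccnb1 gave 0.21. The 2 probes of Ube2c gave 1.13 and 1.26 in the disease comparison, and the 2 of Mki67 gave 0.32 and 0.13.

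Other cell cycle genes were measured for 106 symbols, and 33 of them were called in at least 1 comparison, as were 38.1% of all genes. Counts below stand beside 12.8% of all genes called higher and 12.2% lower in the disease comparison, and 18.9% and 13.4% in the cross comparison. Of 22 D cyclins, G1 kinases, pocket proteins and their partners, 11 were called higher and 0 lower in the disease comparison (median 0.61). Rb1, the retinoblastoma protein that restrains E2F, rose by 1.14 (SE 0.18, adjusted p = 0.00447), and read -0.53, -1.12 and -0.82 in non-GD and 0.03, 0.37 and 0.53 in low Se GD. Its relative Rbl1 rose by 0.90 and the MuvB subunits Lin9, Lin52 and Lin54 by 0.70, 0.87 and 0.66. The others that rose were Ccnd3 (0.87), Cdk2 (0.82), Tfdp2 (1.04), E2f2 (0.88) and Myc (0.49). The count includes Cdk6, which was well above background on 3 arrays and on 0 of non-GD, passed the filter through the GD groups alone, and is given no size. In the cross comparison 5 were called higher and 0 lower, Cdk6 again with no size, Cdk2 (1.19), Ccnd1 (0.99), Rb1 (0.83) and Myc (0.39).

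Of 17 Cdk inhibitors and damage checkpoint genes, 5 rose and 0 fell in the disease comparison: Wee1, the kinase that blocks Cdk1 (1.28), Cdkn2c (1.09), Cdkn1b (0.73), Cdkn1a (0.58) and Ccng1 (0.41). Cdkn1b, the Cdk inhibitor p27, was also the single gene of these lists called in the selenium comparison. It read 3.79, 3.68 and 3.61 in low Se GD, against 3.05, 3.13 and 2.83 in normal Se GD, and fell by 0.69 on the log2 scale (SE 0.11, adjusted p = 0.0435). Against non-GD, 6 rose and 0 fell in normal Se GD: Wee1 (1.0), Ccng1 (0.76), Trp53 (0.69), Cdkn2a (0.61), Cdkn1a (0.59) and Atm (0.40).

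Other DNA replication and mitotic genes had medians near those of the 45. In the disease comparison 5 of 26 replication genes rose and 0 fell (median 0.45), Dut (1.0), Mcm7 (0.94), Mcm2 (0.83), Mcm3 (0.66) and Pold1 (0.40). Of 41 mitotic genes 4 rose, Smc2 (1.01), Cdc25b (0.99), Cenpm (0.77) and Spc25 (0.69), and Espl1, separase, fell by 1.17 on the log2 scale (median 0.54). In the selenium comparison 0 of either list were called, with medians of -0.61 and -0.64. Groups did not overlap for 20 of 26 and 30 of 41 that were lower (11.4% of all genes). In the cross comparison Pole fell by 0.57, Espl1 by 1.64 and Sgo2a by 0.46, while Cenpm rose by 0.77. The probe of Prim2 was called lower there (-2.94). It read 1.12, 2.12 and 1.67 in non-GD, the order of the E1A control spot, then -0.12, -0.10 and -0.18 in low Se GD, then -0.29, -0.63 and -2.99 in normal Se GD. The part of that control signal in its reading was not tested.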

How the data were processed

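Spleen RNA had been hybridised to Agilent 1-colour arrays. The deposited scanner files give an intensity per spot, which per the file headers Feature Extraction 11.0.1.1 had background-subtracted, with marks for spots well above background and for outliers. The authors' deposited table of log2 values (median 6.43 in every column) was an alternative only, and the sources used here do not say how it was made. Its columns for low Se non-GD correlated best with a different array of the group, so replicate numbers there are uncertain.

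From these, log2 of the processed signal minus each array's 75th percentile over 43020 non-control spots was computed. Outlier spots were left out, spots of a probe averaged, and a gene read from its brightest probe. Accessions named 27234 of 39429 probes through RefSeq (GRCm38.p6). Left out were 6078 genes well above background on fewer than 3 arrays and 48 with a marked spot. No spot was saturated (0). limma 3.58.1 in R 4.3.3 (lmFit, eBayes, 2-sided) was fitted to all 9 arrays with 6 residual degrees of freedom, with Benjamini-Hochberg adjustment over 26325 genes, threshold 0.05. The fit was tested on simulated data. The number of arrays limits the precision.

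Members and lists were chosen with earlier results of these data known. Named with values were called members, the brightest gene of each role group, genes with probes called in opposite directions and other called cell cycle genes. Others singled out (Ccne2, Mybl2, Tyms, Cdc25c, Aurkb, Ube2c, Ccnb1, Nuf2, Top2a, Rrm1, Uhrf1, Klf1, Hba-a1, Hbb-bt, Adipoq, Add2, Tspo2, Mybl1, Plin1, Cd163, Rn28s1) were chosen after their values were seen. Alternatives were another scaling, quantile normalization, normexp, the authors' table, other filters, the mean of probes, slide and replicate as blocks, and arrays left out. For normexp the median spot signal was used. A fit to only the arrays of the groups compared was a further alternative.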

Additional observations from a re-analysis of the deposited data

How the results depend on the processing

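Median changes of the 45 genes kept their sign under every alternative run in the disease comparison (0.22 to 0.97) and in the selenium comparison (-0.93 to -0.63). In the cross comparison the median was -0.73 with slide as a fixed block. Leaving out 1 array gave -0.47 to 0.19 there, 0.32 to 0.97 in the disease comparison and -0.91 to -0.63 in the selenium comparison. In the disease comparison, 3 genes higher became 5 under normexp (8.54% of all genes). They also became 5 under a filter on all 9 arrays (18.7% of all genes, with 42 of the 45 in the fit). They became 0 with slide as a fixed (15% of all genes) or random block (14.4%) and within slide 1 (1.57%). The same held without the in-between arrays (0.247%) and with 2 arrays a group (0%). The 1 gene lower became 0 under quantile normalization (10.5% of all genes), no filter (9.09%) and the replicate block (10.4%). It also became 0 within slide 1 (2%), without the in-between arrays (0.775%) and with 2 arrays a group (0.076%). Leaving out 1 array gave 0 to 16 higher and 0 to 1 lower. In the selenium comparison, 0 lower became 2 with slide as a random block (2.29% of all genes) and 38 within slide 2 (4.81%). The counts stayed 0 in both directions when 1 array was left out. Without normal Se GD replicate 3, 2.89% of all genes were called higher and 1.2% lower. In the other omissions at most 0.0038% of all genes were called in a direction, so those say little about the 45. In the cross comparison, 3 lower became 0 with slide as a fixed block (5.41% of all genes), without the in-between arrays (5.33%) and with 2 arrays a group (0%). With normal Se GD replicates 1 and 2 averaged, 1 was lower (11.6% of all genes). Leaving out 1 array gave 1 to 9 lower and 0 to 3 higher. Foxm1 stood at 0.05 (adjusted p = 0.899) there as the mean of its probes, since its second, dim probe points the other way; its adjusted p ranged from 0.00938 to that value. The cause of the other changes was not tested. The averaged pair and 2 arrays a group were chosen after seeing the data.

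Same-numbered arrays did not deviate together (correlations of -0.213 to 0.0991). With 3 arrays a group and uncertain replicate numbers in non-GD, this cannot exclude that the arrays were paired. The replicate block gave 2 genes higher and 0 lower in the disease comparison (9.12% and 10.4% of all genes). It gave 0 and 0 in the selenium comparison (0% and 0%), and 0 and 2 in the cross comparison (15.5% and 11.8%). Quantile normalization and normexp moved the median of all genes in the disease comparison to 0.13 and -0.16, against 0.08.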
